A study of Mus musculus with 8 samples.

Results

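The CC chemokine ligands described here are 10 secreted attractants of the mouse: Ccl2, Ccl3, Ccl4, Ccl5, Ccl6, Ccl7, Ccl8, Ccl9, Ccl12 and Ccl24. They were chosen by symbol, as 10 of the 24537 genes of the count table, and all 10 had enough reads to be tested. RNA was sequenced from cells sorted for EpCAM, an epithelial surface protein, out of pancreatic tumours of FVB/NJ mice. Every mouse carried KrasLSL-G12D, Tp53f/f and a Rosa26LSL-Luc reporter together with Pdx1-Cre, which drives recombination in cells of the pancreatic lineage. The anti-LIF arm received gemcitabine and a monoclonal antibody against LIF, a cytokine of the interleukin-6 family, and the IgG arm received gemcitabine and control IgG. Gemcitabine, a nucleoside analogue used against pancreatic cancer, was thus shared by both arms, at 50 mg/kg on days 1 and 4. The antibodies were given at 25 mg/kg on days 1, 3 and 5, starting at 42 to 43 days of age, and tumours were taken on day 6, at about 48 days of age. Each arm had 4 mice with 1 library per tumour. The anti-LIF libraries (labels ending in GA) were KPCL-PCC_227_GA, then KPCL-PCC_310_GA, then KPCL-PCC_354_GA and last KPCL-PCC_391_GA, and the IgG libraries (labels ending in G) were KPCL-PCC_203_G, then KPCL-PCC_343_G, then KPCL-PCC_345_G and last KPCL-PCC_393_G. Where a value is given for each library, the values of an arm follow this order.

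CC chemokines are small proteins with paired cysteines near their start that bind G-protein-coupled receptors on leukocytes and set the direction in which those cells migrate. In pancreatic tumours the best known axis is Ccl2 with its receptor Ccr2, which brings monocytes from the bone marrow into the tumour, where they become macrophages. Macrophages make many CC chemokines themselves, so the transcripts are found in the same cells that the proteins attract.

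All libraries held between 15135457 and 18972281 counts in genes. Lif RNA averaged 127 ± 7.08 CPM in anti-LIF libraries and 81.4 ± 15.6 CPM in IgG libraries (SD, n = 4 each). CPM are counts scaled to library size after TMM adjustment. The log2 fold change of Lif was 0.64 ± 0.13 (SE, adjusted p = 0.00965, edgeR's quasi-likelihood test with Benjamini-Hochberg adjustment). The antibody binds the protein, so this RNA level is no check of the treatment. Lifr, the gene of the LIF receptor, was also higher (log2 1.30 ± 0.24, adjusted p = 0.00663, edgeR). Epcam, the gene of the sort marker, averaged 305 ± 74.8 CPM in anti-LIF libraries and 575 ± 76.8 CPM in IgG libraries and fell by 0.91 on the log2 scale (adjusted p = 0.0102, edgeR). Both arms also carried reads of cells that the sort was meant to leave out: 17 myeloid markers, led by Lyz2, C1qa and C1qc, took 2.51% to 4.21% of counts in anti-LIF libraries and 1.18% to 1.56% in IgG libraries.

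With anti-LIF, 8 of the 10 ligands were higher than with IgG (edgeR's quasi-likelihood test, adjusted p under 0.05 by Benjamini-Hochberg over all 14711 tested genes), 0 were lower and 2, Ccl6 and Ccl3, did not pass; with libraries scaled to their myeloid marker reads instead, 4 were higher and 2 lower. For comparison, 15.7% of all tested genes were higher and 16.5% lower in the first of these tests. With the myeloid scaling, 1.05% of all tested genes were higher and 85.2% lower. Without the myeloid scaling, the count of lower members was also 0 at an unadjusted p under 0.05, and DESeq2 also called 8 members higher and 0 lower. The median log2 fold change of the 10 members was 1.73, against −0.006 for all tested genes. The CPM values of the arms did not overlap for 8 members, where 17.6% of all tested genes lay wholly above and 18.2% wholly below the IgG libraries. In bulk RNA, fewer cells of a type and less RNA per cell cannot be told apart, and the same holds for more cells and more RNA per cell.

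Levels are given below as FPKM (counts per unit of transcript length and of library total) so that genes of different length can be set side by side; folds and tests come from the counts.

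**Figure D1:**
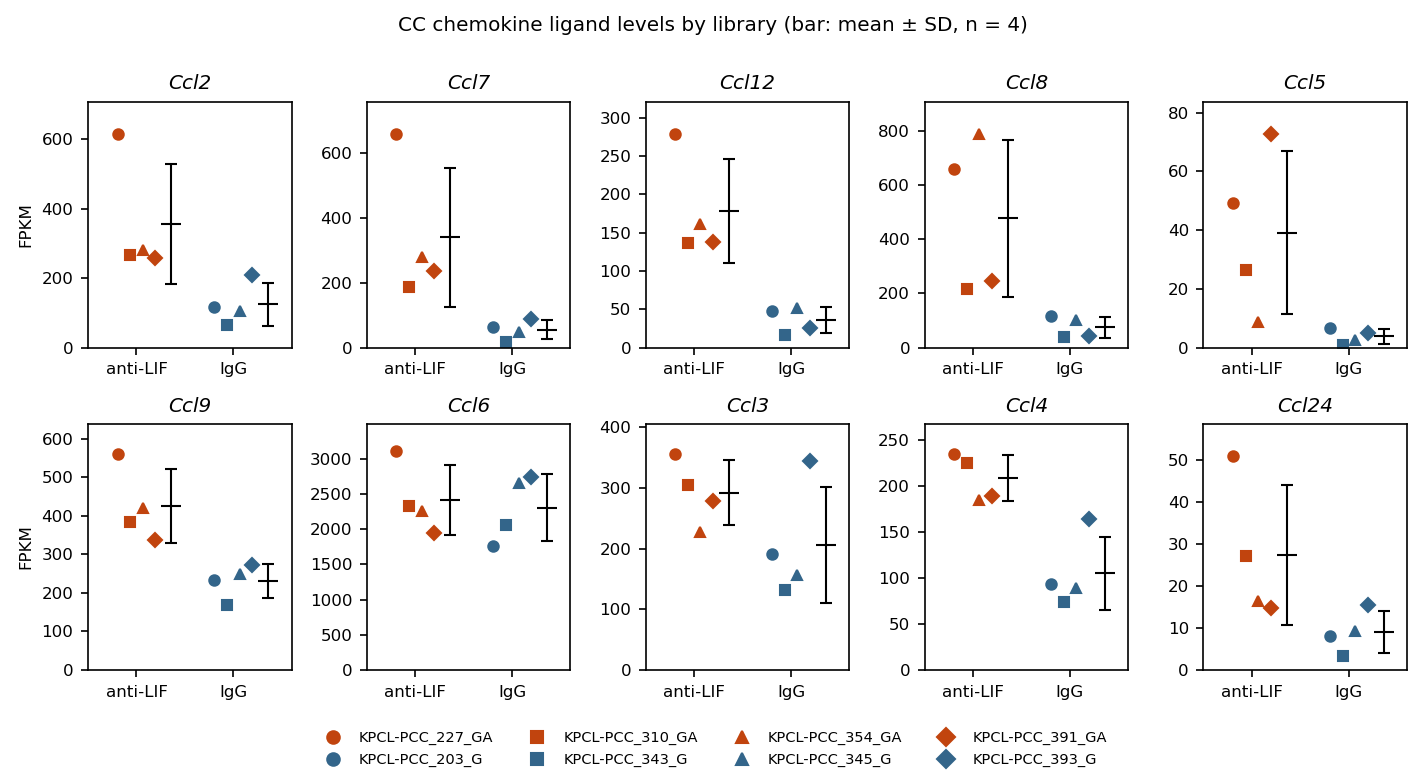
FPKM of each CC chemokine ligand on the vertical axis, with anti-LIF libraries left and IgG libraries right; points are single libraries, and the bars give the mean ± SD (n = 4 each). Ccl2, Ccl7, Ccl12, Ccl8, Ccl5, Ccl9 and Ccl4 lie wholly higher with anti-LIF, Ccl6 and Ccl3 overlap between the arms, and Ccl24 overlaps by 1 library on this scale. Scaled to myeloid marker reads, Ccl6, Ccl9, Ccl3 and Ccl4 turn to the opposite sign, and the median log2 fold change of all tested genes moves to −1.23.

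The ligands of Ccr2 lie in a cluster on chromosome 11 that spans 81.2 kb, chr11:82035577-82116799 on mm10. Ccl2 (chr11:82035577-82037452, plus strand) encodes the main monocyte attractant of the family. It measured 616, 265, 282 and 259 FPKM in the anti-LIF libraries, against 117, 64.3, 106 and 209 FPKM in the IgG libraries. The arms did not overlap, but KPCL-PCC_227_GA stood far above the other anti-LIF libraries, which were close to each other, and KPCL-PCC_393_G came nearest to them. The fold was 3.24 (log2 1.70 ± 0.43, adjusted p = 0.0182, edgeR).

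Ccl7 (chr11:82045712-82047523, plus strand), the neighbouring gene, also attracts monocytes through Ccr2. It measured 656, 186, 278 and 235 FPKM in the anti-LIF libraries, against 64.5, 18.3, 48.9 and 87.2 FPKM in the IgG libraries. KPCL-PCC_227_GA was again the highest, and the lowest anti-LIF library was above the highest IgG library by more than the IgG libraries differed from each other. The difference was 7.07-fold (log2 2.82 ± 0.56, adjusted p = 0.00822, edgeR), and the log2 fold change was 2.19 without KPCL-PCC_227_GA.

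Ccl12 (chr11:82101845-82103399, plus strand) is a Ccr2 ligand of the mouse with no direct human counterpart. Its level was 279, 136, 161 and 138 FPKM in the anti-LIF libraries, against 47.6, 17.0, 52.0 and 25.0 FPKM in the IgG libraries. Apart from the higher KPCL-PCC_227_GA, the anti-LIF libraries were tightly grouped and wholly above the IgG libraries. Ccl12 rose 5.63-fold (log2 2.49 ± 0.42, adjusted p = 0.00494, edgeR), the lowest adjusted p of the 10 ligands.

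Ccl8 (chr11:82115185-82116799, plus strand) is the last of the 4 members along this stretch, and in the mouse its protein acts chiefly on Ccr8. It measured 659, 216, 790 and 245 FPKM in the anti-LIF libraries, against 115, 39.6, 102 and 43.6 FPKM in the IgG libraries. Its high libraries were KPCL-PCC_354_GA and KPCL-PCC_227_GA, so the order within the arm was not that of Ccl2 and Ccl7. The fold was 7.07 here too (log2 2.82 ± 0.55, adjusted p = 0.00783, edgeR). All 4 of the chosen members in this cluster were thus called higher.

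RefSeq (build GRCm38.p6, the assembly of mm10) gave 250 bases before the start for 5 of the members, and the pairs shown here are the neighbours Ccl12 and Ccl8, whose folds were alike, and the neighbours Ccl9 and Ccl6, whose folds were not. Ccl12 (chr11:82101595-82101844) and Ccl8 (chr11:82114935-82115184) are on the plus strand, and Ccl9 (chr11:83578637-83578886) and Ccl6 (chr11:83593088-83593337) on the minus strand. Capitals mark every match, on either strand, to the motifs TATAAA (the core promoter box of that name), GGNNNTTCC (a kappaB core), TTCNNNGAA (GAS), GAAANNGAA (part of an ISRE), TGANTCA (AP-1) and GAGGAA (core of a PU.1 site). Each sequence runs 5′ to 3′ and ends at position −1, the base before the start.
Ccl12: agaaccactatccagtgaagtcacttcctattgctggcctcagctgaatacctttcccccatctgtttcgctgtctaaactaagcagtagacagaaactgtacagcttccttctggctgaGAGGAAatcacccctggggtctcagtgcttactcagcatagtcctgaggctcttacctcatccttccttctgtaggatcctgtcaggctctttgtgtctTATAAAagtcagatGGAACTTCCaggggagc
Ccl8: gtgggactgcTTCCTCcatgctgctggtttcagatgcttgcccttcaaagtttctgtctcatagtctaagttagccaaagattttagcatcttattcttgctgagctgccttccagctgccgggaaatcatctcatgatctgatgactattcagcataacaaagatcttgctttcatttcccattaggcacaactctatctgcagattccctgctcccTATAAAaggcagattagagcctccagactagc
Ccl9: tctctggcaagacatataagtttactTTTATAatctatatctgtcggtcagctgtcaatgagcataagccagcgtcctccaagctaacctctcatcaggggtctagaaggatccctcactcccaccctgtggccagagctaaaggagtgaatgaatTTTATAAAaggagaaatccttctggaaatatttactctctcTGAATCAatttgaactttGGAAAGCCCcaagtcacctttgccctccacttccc
Ccl6: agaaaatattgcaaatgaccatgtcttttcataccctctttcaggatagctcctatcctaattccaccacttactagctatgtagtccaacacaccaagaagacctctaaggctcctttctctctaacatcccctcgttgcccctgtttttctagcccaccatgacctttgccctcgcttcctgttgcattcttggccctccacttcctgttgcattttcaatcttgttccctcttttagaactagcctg

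The windows of Ccl12 and Ccl8 each held TATAAA at nearly the same place, beginning at −31 for Ccl12 and −32 for Ccl8, a motif found in 12.4% of 32851 RefSeq promoters of this length. Both also held the GAGGAA core (at −130 for Ccl12 and, on the opposite strand, at −240 for Ccl8), as did Ccl3 at −33; 23.3% of promoters hold it. The best local alignment of Ccl12 with Ccl8 covered −147 to −91 and −147 to −93 and had 41 identical bases in 58 columns (70.7%). The kappaB core (15.7% of promoters) was found in Ccl12 at −17 and, on the opposite strand, in Ccl9 at −35. Of the 5 windows, that of Ccl9 had the AP-1 match, at −53 (6.7% of promoters), and that of Ccl3 the ISRE part, at −39 (7.1%), where it overlaps the GAGGAA core. The TATAAA matches of Ccl9 began at −224, −94 and −92, and those at −94 and −92 overlap on opposite strands. The Ccl6 window had none of the 6 motifs, and GAS (7.0% of promoters) was in none of the 5 windows. The best alignment of Ccl9 with Ccl6 was short, 16 identical bases of 17, at −18 to −2 and −59 to −43.

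Another cluster on chromosome 11, chr11:83525779-83664683 (139 kb), holds the genes of macrophage inflammatory proteins and their relatives, and 3 of its 5 members were called higher. Ccl5 (chr11:83525779-83530518, minus strand) attracts T cells and monocytes and is made by lymphocytes as well as macrophages. It measured 49.1, 26.4, 8.60 and 72.6 FPKM in the anti-LIF libraries, against 6.62, 0.932, 2.70 and 4.80 FPKM in the IgG libraries. KPCL-PCC_354_GA, a high library for Ccl8, was the lowest of its arm for Ccl5 and close to KPCL-PCC_203_G, and KPCL-PCC_391_GA was the highest. With 1673 counts over the anti-LIF libraries and 171 over the IgG libraries, its fold of 11.7 was the highest and the least precise of the members (log2 3.55 ± 0.72, adjusted p = 0.00865, edgeR).

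Ccl3 (chr11:83647843-83649378, minus strand) is a Ccr1 ligand that attracts macrophages and other leukocytes. It measured 356, 305, 227.3 and 279 FPKM in the anti-LIF libraries, against 192, 132, 156 and 344 FPKM in the IgG libraries. KPCL-PCC_393_G alone reached into the range of the anti-LIF libraries, and the other 3 IgG libraries were below all of them. The log2 fold change of 0.65 ± 0.29 did not pass (adjusted p = 0.115, edgeR); without KPCL-PCC_393_G it was 1.00 and passed (adjusted p = 0.0171).

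Ccl4 (chr11:83662584-83664683, plus strand), an attractant of lymphocytes and macrophages next to Ccl3, measured 234, 225, 184 and 189 FPKM in the anti-LIF libraries, against 93.6, 73.6, 89.6 and 164 FPKM in the IgG libraries. KPCL-PCC_393_G was again the highest of its arm, yet it stayed below every anti-LIF library. Ccl4 rose 2.19-fold (log2 1.13 ± 0.23, adjusted p = 0.00929, edgeR). The highest anti-LIF library was 1.27 times the lowest, the narrowest span of any member in that arm.

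Ccl9 and Ccl6 are rodent ligands of Ccr1 that resting macrophages and other myeloid cells make. Ccl9 (chr11:83572917-83578636, minus strand) measured 560, 384, 420 and 337 FPKM in the anti-LIF libraries, against 233, 169, 250 and 273 FPKM in the IgG libraries. The arms did not overlap and differed by a fold of 2.04 (log2 1.03 ± 0.23, adjusted p = 0.0111, edgeR).

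Ccl6 (chr11:83587886-83593087, minus strand) was by far the most abundant member and the one that differed least. It measured 3106, 2335, 2264 and 1948 FPKM in the anti-LIF libraries, against 1754, 2062, 2661 and 2737 FPKM in the IgG libraries. The arms overlapped throughout: KPCL-PCC_345_G and KPCL-PCC_393_G were above every anti-LIF library but KPCL-PCC_227_GA. The log2 fold change was 0.21 ± 0.24 (adjusted p = 0.535, edgeR), and 0.0007 without KPCL-PCC_227_GA.

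Ccl24 (chr5:135569937-135573043, minus strand), a ligand of the eosinophil receptor Ccr3 that macrophages make, lies apart from both clusters. It measured 50.8, 27.2, 16.3 and 14.8 FPKM in the anti-LIF libraries, against 8.13, 3.40, 9.21 and 15.4 FPKM in the IgG libraries. The 2 lowest anti-LIF libraries were close to KPCL-PCC_393_G, so the arms met at their edges, although in CPM the lowest anti-LIF library (24.4) stayed above the highest IgG library (23.3). Its call was the weakest of the 8 (log2 1.77 ± 0.53, adjusted p = 0.0333, edgeR): it was lost without KPCL-PCC_227_GA (log2 1.19, adjusted p = 0.0698), without KPCL-PCC_310_GA (log2 1.82, adjusted p = 0.0518) and without any 1 of KPCL-PCC_203_G, KPCL-PCC_343_G and KPCL-PCC_345_G (adjusted p = 0.0683 to 0.0741). The other 7 calls held whichever library was left out.

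The order of the levels per length changed between the arms below the first place. In anti-LIF libraries the mean FPKM ran Ccl6 (2413 ± 492), Ccl8 (477 ± 290), Ccl9 (426 ± 96.1), Ccl2 (355 ± 174), Ccl7 (339 ± 215), Ccl3 (292 ± 53.5), Ccl4 (208 ± 25.1), Ccl12 (178 ± 67.7), Ccl5 (39.2 ± 27.8) and Ccl24 (27.3 ± 16.6; SD, n = 4). Between neighbours in this order, the libraries overlapped everywhere except between Ccl6 and Ccl8 and between Ccl12 and Ccl5. In IgG libraries the order was Ccl6 (2304 ± 475), Ccl9 (231 ± 44.6), Ccl3 (206 ± 95.3), Ccl2 (124 ± 60.9), Ccl4 (105 ± 39.9), Ccl8 (75.1 ± 39.1), Ccl7 (54.7 ± 28.9), Ccl12 (35.4 ± 17.1), Ccl24 (9.05 ± 4.95) and Ccl5 (3.76 ± 2.47; SD, n = 4). Here the exceptions were Ccl6 with Ccl9 and Ccl12 with Ccl24. Ccl8 was thus second with anti-LIF and sixth with IgG, although its range with anti-LIF took in that of Ccl9.

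As a share of the summed FPKM of the 10 ligands, Ccl6 made up 47.3% to 56.9% in anti-LIF libraries and 66.7% to 79.9% in IgG libraries. Ccl8 held 5.25% to 17.0% in anti-LIF libraries and 1.12% to 4.36% in IgG libraries, and Ccl7 held 4.52% to 9.99% with anti-LIF and 0.707% to 2.45% with IgG. Ccl2 held 6.09% to 9.38% with anti-LIF and 2.49% to 5.35% with IgG. Ccl12 held 3.32% to 4.24% of the sum in anti-LIF libraries and 0.640% to 1.81% in IgG libraries. Ccl3 kept a like share, 6.32% ± 1.35 with anti-LIF and 6.43% ± 1.99 with IgG (SD, n = 4 each). Together the 10 ligands took 0.604% to 0.998% of all counts with anti-LIF and 0.456% to 0.673% with IgG, ranges that overlap. Without Ccl6 the shares were 0.253% to 0.454% with anti-LIF and 0.0981% to 0.186% with IgG, which do not overlap. The ligands left in that sum were the 8 called higher and Ccl3, so its separation restates those calls and is no separate result.

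**Figure D2:**
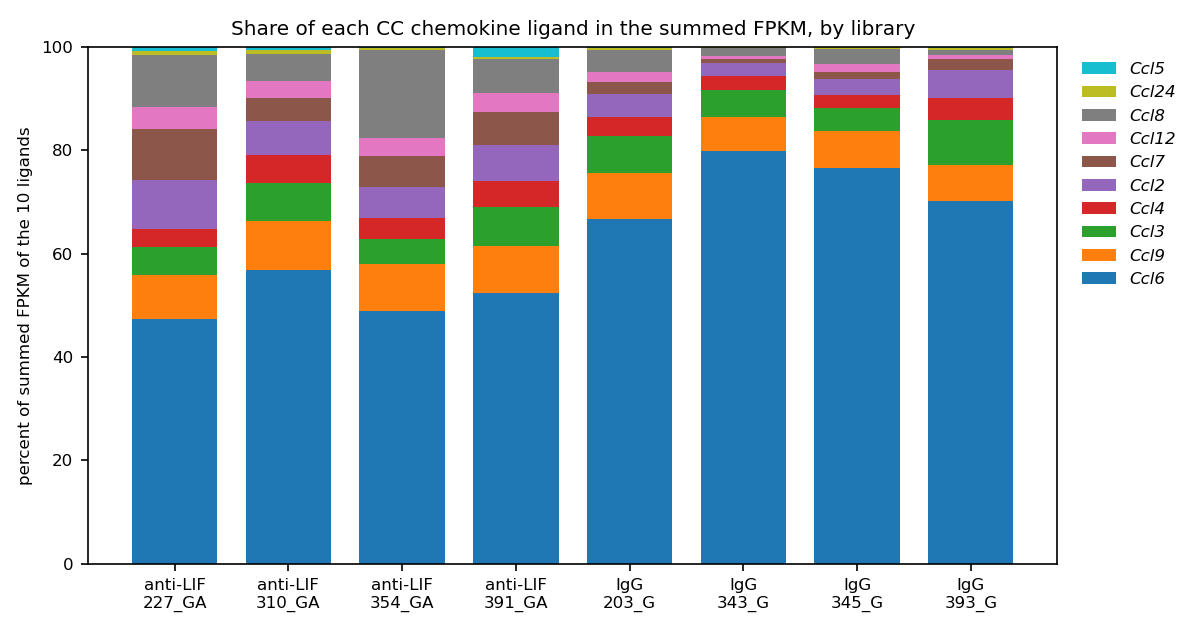
Percent of the summed FPKM of the 10 CC chemokine ligands taken by each, 1 bar per library, with anti-LIF libraries left and IgG libraries right. Ccl6 takes 47.3% to 56.9% of the bar with anti-LIF and 66.7% to 79.9% with IgG, and Ccl2, Ccl7, Ccl12 and Ccl8 take larger shares with anti-LIF; shares within a library do not depend on how libraries are scaled.

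Ratios of 1 member to another within a library do not depend on the scaling either. Of the 45 pairs, 20 were fully separated between the arms, with the smallest two-sided p that an exact permutation test can give here (0.0286, from 70 assignments); adjusted over the 45 pairs it was 0.0643, so 0 passed 0.05. The pairs reuse the same 10 genes and are not independent, and the share of separated pairs among other genes was not computed. The mean log2 ratio to Ccl6 was higher with anti-LIF than with IgG by 3.26 for Ccl5, 2.59 for Ccl7, 2.53 for Ccl8 and 2.34 for Ccl12. The ratio of Ccl8 to Ccl12 differed by 0.19 (exact permutation p = 0.771). That of Ccl4 to Ccl3 differed by 0.46 and was among the separated pairs (exact permutation p = 0.0286, adjusted 0.0643).

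Across the 8 libraries, after each arm's mean was taken out, some members varied together (Pearson's r of log2 CPM deviations, given as a description; the points share a library's scaling, and the myeloid share differed between libraries). The adjacent genes Ccl3 and Ccl4 had r = 0.975, and Ccl2 and Ccl7 had r = 0.951. Members that lie apart came close to this, such as Ccl2 with Ccl24 on chromosome 5 (0.930) and with Ccl9 (0.919). The neighbours Ccl9 and Ccl6 had r = 0.812. Ccl8 went with Ccl12 (0.81) but not with Ccl3 (−0.12), Ccl4 (−0.09) or Ccl5 (−0.05). The genes named next were picked as the highest of all 14711 tested genes over only 8 libraries. High values are favoured by that choice, and no shared regulation was tested. The closest of all tested genes to Ccl2 were Arf2, Rasgrp2 and Klhl13 (0.978 to 0.982), and to Ccl7 they were Eloa, Itga9 and Ccdc22 (0.976 to 0.992). Ccl12 was closest to Borcs8, AU040320 and Mut (0.978 to 0.979), and Ccl8 to Htt, Gatb and Sirt7 (0.971 to 0.976). For Ccl5 they were 2700097O09Rik, Snora28 and Lst1 (0.953 to 0.975), and for Ccl9 Pcbd2, Kcnk13 and Gmpr2 (0.986 to 0.991). Ccl6 was closest to Sart1, Tomm6 and Ccl11 (0.968 to 0.992). Ccl3 stood nearest to Antxr1, Ccl4 and Dedd (0.974 to 0.990), and Ccl4 to P4ha1, Ccl3 and Tmppe (0.967 to 0.978). Ccl24 was closest to Mcfd2, Gng5 and Ghdc (0.971 to 0.976). Ccl4 and Ccl3 were the only members among each other's 3 closest genes.

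Myeloid cells are a known source of these ligands, and 14 of the 17 myeloid markers were higher with anti-LIF and 0 lower (median log2 fold change 1.24), the lowest anti-LIF library (2.51% of counts) lying above the highest IgG library (1.56%). Lyz2 alone gave 38.5% of the reads of this list. Per 1000 reads of the myeloid list, Ccl7 had 15.2, 7.22, 10.9 and 8.35 reads in the anti-LIF libraries, against 4.38, 1.59, 3.25 and 6.55 in the IgG libraries. Ccl12 had 4.31, 3.55, 4.24 and 3.27 in the anti-LIF libraries, against 2.16, 0.987, 2.31 and 1.26 in the IgG libraries. These 2 ligands, and Ccl8 at 5.35 to 19.8 with anti-LIF and 2.09 to 4.97 with IgG, stayed higher with anti-LIF in all libraries when counted per myeloid read.

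Ccl6 ran the other way on this scale, at 129, 164, 160 and 125 reads per 1000 myeloid reads in the anti-LIF libraries, against 214, 323, 318 and 371 in the IgG libraries. The arms did not overlap, and the anti-LIF mean was 0.471 of the IgG mean. In the edgeR test scaled to the myeloid list, however, 85.2% of all tested genes were lower. Their median log2 fold change was −1.23, against −1.09 for Ccl6. An exact permutation test of the log2 ratios, adjusted over the 10 ligands, gave 0.0714 for Ccl6, Ccl7, Ccl12 and Ccl8, so none passed 0.05. With Lyz2 left out of the list the ratio of the means was 0.544 for Ccl6, 3.06 for Ccl7, 2.62 for Ccl12 and 3.38 for Ccl8. The other 6 ligands overlapped between the arms. Ccl2 averaged 11.3 ± 2.19 with anti-LIF and 9.15 ± 4.56 with IgG, Ccl24 1.37 ± 0.509 with anti-LIF and 1.06 ± 0.588 with IgG, and Ccl5 0.841 ± 0.623 with anti-LIF and 0.177 ± 0.111 with IgG (SD, n = 4 each). Means below those of IgG were seen for Ccl9 (53.3 ± 7.68 with anti-LIF and 64.0 ± 9.59 with IgG), Ccl3 (9.62 ± 1.56 with anti-LIF and 15.0 ± 7.13 with IgG) and Ccl4 (5.80 ± 1.13 with anti-LIF and 6.39 ± 2.50 with IgG). KPCL-PCC_393_G had the highest value of all libraries for Ccl2, Ccl9, Ccl6, Ccl3 and Ccl4.

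**Figure D3:**
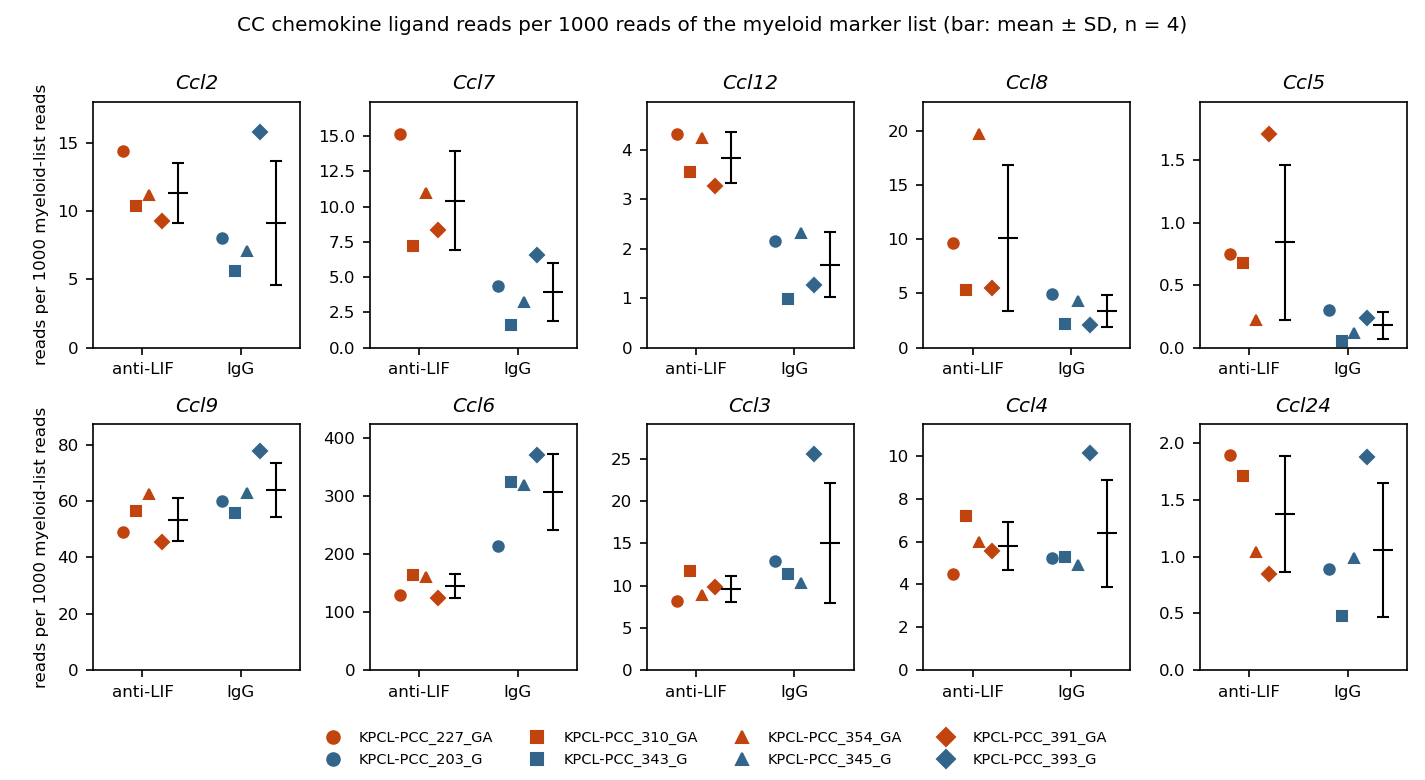
Reads of each CC chemokine ligand per 1000 reads of the 17 myeloid markers, with anti-LIF libraries left and IgG libraries right; points are single libraries, and the bars give the mean ± SD (n = 4 each). Ccl7, Ccl12 and Ccl8 are higher with anti-LIF in every library and Ccl6 lower on this scale, whereas Ccl6 overlapped between the arms per length and library total. Scaled to the myeloid markers, 85.2% of all tested genes were lower with anti-LIF.

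When the test across all genes was repeated with libraries scaled to the myeloid list, the median of all tested genes moved to −1.23, and values have to be read against that shift. On this scaling 1.05% of tested genes were higher with anti-LIF and 85.2% lower. Higher were Ccl5 (log2 2.24, adjusted p = 0.0016), Ccl8 (1.57, adjusted p = 0.00203), Ccl7 (1.40, adjusted p = 0.00193) and Ccl12 (1.19, adjusted p = 0.00125, all edgeR). Lower were Ccl6 (−1.09, adjusted p = 0.000464) and Ccl3 (−0.64, adjusted p = 0.0437), both less negative than the median of all genes. Ccl2 (0.31), Ccl24 (0.38), Ccl4 (−0.14) and Ccl9 (−0.26) did not pass. Scaled to 15 epithelial markers, the median of all genes was 1.06, 76.8% of genes were higher and 1.09% lower, and all 10 ligands were higher, down to Ccl6 (log2 1.33, adjusted p = 0.00598, edgeR).

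**Figure D4:**
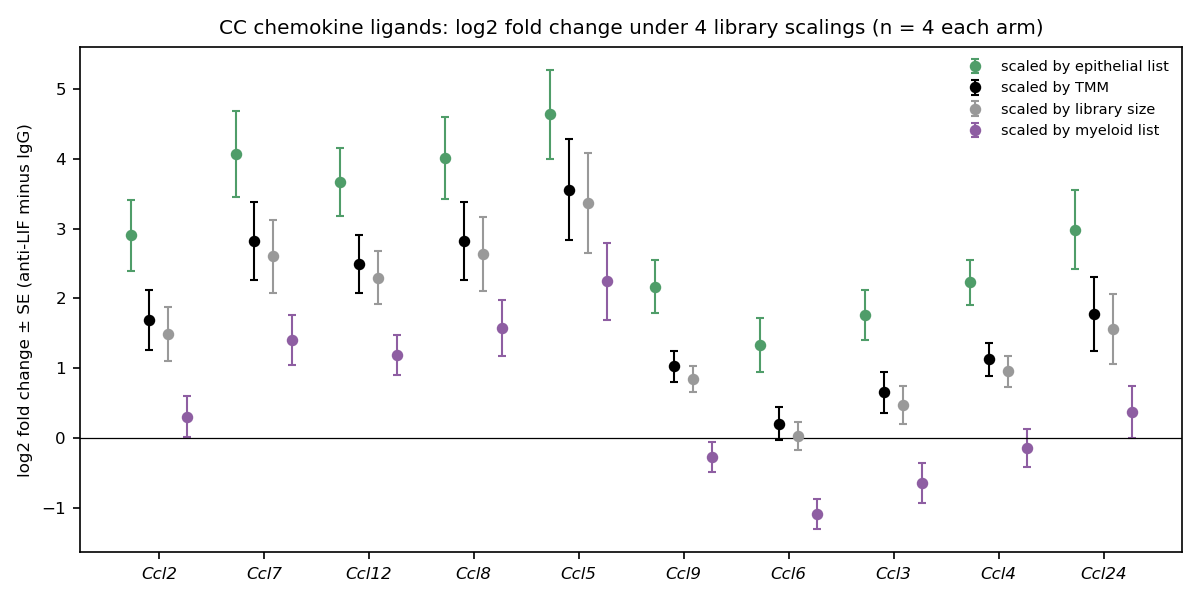
Log2 fold change (anti-LIF minus IgG) ± SE of each CC chemokine ligand with libraries scaled to the epithelial list, by TMM, to library size or to the myeloid list (n = 4 each arm). Ccl7, Ccl12, Ccl8 and Ccl5 stay above 0 in all 4 scalings, and Ccl9, Ccl6, Ccl3 and Ccl4 are below 0 with the myeloid scaling, in which the median of all genes is −1.23.

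Other marker lists moved as well, and their part in the ligand differences was not tested. Of 8 markers of tissue-resident macrophages (led by Mrc1, F13a1 and Folr2), 6 were higher and 0 lower (median log2 2.53). The list took 0.414% to 0.812% of counts with anti-LIF and 0.263% to 0.415% with IgG. Mrc1, which gave 59.4% of its reads, did not pass (log2 0.50, adjusted p = 0.143, edgeR), nor did Cd163 (0.0654). Of 6 markers of recruited monocytes (led by Chil3, Plac8 and Ccr2), 1 was higher, Ccr2, and 1 lower, Chil3, which gave 86.1% of the list's reads; the list took 0.0958% to 0.183% with anti-LIF and 0.374% to 1.08% with IgG. Lymphocytes can make Ccl5: of 12 T and NK cell markers (led by Foxp3, Cd4 and Klrb1c), 6 were tested, 3 were higher and 0 lower, at 0.0046% to 0.0060% of counts with anti-LIF and 0.0025% to 0.0040% with IgG. The 3 higher were Foxp3, which gave 43.2% of the list's reads, Cd4, and Cd3g with 92 counts with anti-LIF and 27 with IgG. Other T cell genes were low: Cd3e (73 with anti-LIF and 35 with IgG) and Cd8a (58 and 29) did not pass, and Cd3d (47 and 20) was not tested. Ncr1, which marks NK cells, was at 0 in all libraries, and Nkg7 had 14 counts over the anti-LIF and 8 over the IgG libraries. Of 6 eosinophil markers (led by Ear1, Siglecf and Prg2), 2 were tested and 1, Ear1, was lower; the defining gene Epx had 2 counts with anti-LIF and 0 with IgG. With myeloid scaling, 5 resident macrophage markers were higher and 1 lower, and 0 T and NK cell markers were higher and 1 lower.

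The remaining lists bear on the purity of the sort. Among 15 epithelial markers (led by Krt18, Krt7 and Krt19), 0 were higher and 13 lower (0.175% to 0.353% of counts with anti-LIF and 0.566% to 0.687% with IgG), and all 8 acinar markers (led by Ctrb1, Prss2 and Cpa1) were higher (0.235% to 1.27% with anti-LIF and 0.0263% to 0.167% with IgG). The dendritic cell list (led by Fscn1, Batf3 and Ccr7) had 2 of 8 higher and 1 lower. It took 0.0052% to 0.0094% of counts with anti-LIF and 0.0097% to 0.0163% with IgG. Fscn1, which gave 77.9% of the reads of this list, was the 1 lower, and Batf3 and Siglech were the 2 higher. The neutrophil list (led by S100a8, S100a9 and Csf3r) had 1 of 5 tested higher (0.0095% to 0.0165% with anti-LIF and 0.0046% to 0.0148% with IgG). The B cell list (led by Cd79b and Cd79a) had 1 of 4 higher (0.0018% to 0.0043% with anti-LIF and 0.0006% to 0.0021% with IgG), and the fibroblast and stellate list (led by Dcn, Col3a1 and Col1a2) 1 of 8 (0.0245% to 0.0953% with anti-LIF and 0.0235% to 0.0886% with IgG). Of the mast cell and basophil markers (led by Mcpt8, Mcpt4 and Tpsb2), 2 were tested and 0 called by edgeR (adjusted p = 0.0546 for Mcpt4, with a log2 fold change of −1.90, and 0.867 for Mcpt8; 0.0008% to 0.0026% with anti-LIF and 0.0012% to 0.0028% with IgG). Of the 5 endothelial markers (led by Pecam1, Cdh5 and Kdr), 0 were called by edgeR (0.0011% to 0.0026% with anti-LIF and 0.0009% to 0.0026% with IgG).

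The receptors of these ligands were read from the same libraries. Of 11 CC receptors, 8 were tested, 4 were higher with anti-LIF and 0 lower (median log2 0.66), and with myeloid scaling 1 was higher, Ccr2, and 2 lower, Ccr1 and Ccrl2. Ccr2, the receptor of Ccl2, Ccl7 and Ccl12, measured 595, 314, 629 and 385 CPM in the anti-LIF libraries, against 144, 102, 133 and 76.7 CPM in the IgG libraries, a fold of 4.22 (log2 2.08 ± 0.28, adjusted p = 0.00342, edgeR). Its arms were far apart, with KPCL-PCC_227_GA and KPCL-PCC_354_GA the highest, the same libraries as for Ccl8. Scaled to the myeloid list its log2 fold change was 0.83 (adjusted p = 0.00984, edgeR). Ccr1, which binds Ccl3, Ccl6 and Ccl9, averaged 494 ± 127 CPM with anti-LIF and 303 ± 40.3 CPM with IgG (log2 0.70 ± 0.19, adjusted p = 0.0214, edgeR), a call lost without KPCL-PCC_343_G (0.0614) and turned to −0.58 by myeloid scaling (adjusted p = 0.0183). Ccr6, the Ccl20 receptor, was much scarcer at 7.11 ± 3.13 CPM with anti-LIF and 1.70 ± 0.637 CPM with IgG (log2 2.06 ± 0.42, adjusted p = 0.00886, edgeR).

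Ccrl2, a receptor-like protein that does not signal, averaged 596 ± 114 CPM with anti-LIF and 473 ± 84.3 CPM with IgG and did not pass (adjusted p = 0.183, edgeR), nor did Ccr7 (0.351), Ccr9 (0.315) or Ccr10 (0.826). Ccr3, the Ccl24 receptor, had 57 counts over the anti-LIF libraries and 11 over the IgG libraries, Ccr4 had 10 with anti-LIF and 4 with IgG, and Ccr8, the mouse Ccl8 receptor, 6 with anti-LIF and 4 with IgG; these were too few to be tested. Of the atypical receptors, which take up chemokines without signalling through G proteins, Ackr3 (log2 −0.46 ± 0.36, adjusted p = 0.356, edgeR) and Ackr4 (0.30 ± 0.30, 0.473) did not pass, and Ackr1 (23 counts with anti-LIF and 38 with IgG) and Ackr2 (19 with anti-LIF and 13 with IgG) were not tested.

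Of the 13 other CC ligands listed, 6 were tested, with 0 higher and 0 lower by edgeR (median log2 0.59), and 4 higher with epithelial and 1 lower with myeloid scaling. Ccl11 and Ccl25 were higher at an unadjusted p under 0.05, and DESeq2 called Ccl11 (adjusted p = 0.0418). Ccl17, a Ccr4 ligand of dendritic cells and macrophages, measured 21.3, 134, 387 and 128 CPM in the anti-LIF libraries, against 179, 135, 191 and 103 CPM in the IgG libraries (log2 0.14 ± 0.65, adjusted p = 0.887, edgeR). KPCL-PCC_227_GA, the highest library for Ccl2 and Ccl7, was the lowest of all for Ccl17. The log2 fold changes were 0.80 ± 0.55 for Ccl22 (adjusted p = 0.291, edgeR), 1.43 ± 0.49 for Ccl11 (0.0514), 0.89 ± 0.39 for Ccl25 (0.109), 0.37 ± 0.48 for Ccl20 (0.580) and −0.25 ± 0.54 for Ccl28 (0.746). Ccl27a had 43 counts in each arm, Ccl26 24 with anti-LIF and 5 with IgG, Ccl21a 6 with anti-LIF and 21 with IgG, and Ccl19 1 with anti-LIF and 0 with IgG. Ccl1, Ccl21b and Ccl21c were listed at 0 in all libraries.

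Among 32 transcription factors and cytokines listed as regulators of CC ligands, 28 were tested, 15 were higher with anti-LIF and 0 lower (median log2 0.53), against 10 higher and 1 lower with library-size scaling and 1 higher and 20 lower with myeloid scaling. Among those with the lowest p were Il10, Irf5 and Spi1. Il10, a cytokine that restrains rather than induces many inflammatory chemokines, averaged 11.9 ± 3.59 CPM with anti-LIF and 1.46 ± 0.401 CPM with IgG, a fold of 8.07 (adjusted p = 0.00227, edgeR). Irf5, an inflammatory factor of macrophages, rose 1.70-fold (adjusted p = 0.00466), and Spi1, which encodes the myeloid factor PU.1, 1.72-fold (adjusted p = 0.00587, both edgeR). Of 30 genes of G-protein signalling below the receptors, 17 were higher and 1 lower (median log2 0.47), against 0 higher and 21 lower with myeloid scaling. Rgs10, which shortens G-protein signals, rose 2.28-fold, Rac2, a GTPase of leukocyte movement, 2.21-fold, and Arrb2, a receptor arrestin, 2.10-fold (adjusted p = 0.00295 to 0.00327, edgeR). Gnai1, an inhibitory G-protein subunit, fell by 0.96 on the log2 scale (adjusted p = 0.0182, edgeR; 0.0528 without KPCL-PCC_343_G), while myeloid and epithelial markers moved in the same libraries as given above.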

How the data were processed

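Transcripts were measured by sequencing polyA RNA of EpCAM-sorted tumour cells in 8 libraries, 4 with anti-LIF and 4 with IgG. Per the submitters' processing notes, reads were checked with FastQC 0.11.2, aligned to mm10 with STAR 2.4.0k and quantified with HOMER, and edgeR 3.6.8 was used by the authors; no source used here gives HOMER's version, the strand setting or the annotation version. Raw whole-number counts, as the authors deposited them, were used, 1 transcript per gene. The deposited FPKM table holds FPKM, and all 168000 values of the transcripts in both tables equalled, within 0.002, the count scaled by transcript length and header total. Without strand, reads of antisense transcripts cannot be told apart. Members share no run of 30 bases or more (longest 25, Ccl9 with Ccl6), with coding identities of 38.1% to 66.7%.

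Counts were tested in R 4.3.3 with edgeR 4.0.16: default filterByExpr (14711 genes kept), TMM scaling, quasi-likelihood test without covariates, Benjamini-Hochberg adjustment over all tested genes, threshold 0.05. Fold changes are anti-LIF over IgG with their SE, and CPM used the TMM library sizes. The procedure was tested on simulated counts. With 15135457 to 18972281 counts in genes per library, 171 or more counts supported each member in each arm. The 4 mice of an arm are separate animals. Alternatives used DESeq2 1.42.0 and limma 3.58.1, other scalings and filters, log2(FPKM + 1) and log2(FPKM + 0.1), and each library left out in turn; after seeing the data, KPCL-PCC_227_GA and KPCL-PCC_393_G were also left out together. The labels give no batch or date.

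Members and the 19 gene lists were chosen with earlier results of these data known. Named were all members, all listed CC receptors, atypical receptors and other CC ligands, Lif, Lifr and Epcam, the 4 genes of lowest p (and any called lower) of the regulator and G-protein lists, the 3 highest markers by FPKM of each list and the 3 genes most like each member; a few genes that this rule names are not reported here. Lists are described by counts and medians, without a set test.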

Additional observations from a re-analysis of the deposited data

Results flagged for a closer look

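In 3 of 20 groups of 4 libraries checked, 1 library stood apart by Dixon's criterion, and chance gives this in about 1 in 20 groups. All 3 were the same library, KPCL-PCC_227_GA, and the genes were members in the chromosome 11 cluster of Ccr2 ligands. Ccl2 had 717 CPM in KPCL-PCC_227_GA and at most 287 in the other anti-LIF libraries, a gap of 0.952 of the range. Ccl7 had 757 CPM there and at most 280 in the others (0.836), and Ccl12 had 215 CPM there and at most 109 in the others (0.862). The same library had the highest share of myeloid markers, 4.21% of counts, and per myeloid read it was still the highest of its arm for all 3 genes. For Ccl12 the lead was slight, at 4.31 reads per 1000 myeloid reads against 4.24 in KPCL-PCC_354_GA. All 3 calls held without KPCL-PCC_227_GA.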

How the results depend on the processing

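The number of ligands called higher was 8 with a stricter filter and with none, RLE or library-size scaling, DESeq2, limma-voom and limma on log2 FPKM with either pseudocount, and 10 with epithelial scaling. Leaving out 1 library gave 7 to 9 called higher and 0 to 0 called lower, and leaving out KPCL-PCC_227_GA and KPCL-PCC_393_G together gave 9 higher. With myeloid scaling 4 were called higher and 2 lower, and the log2 fold changes of Ccl9 (−0.26), Ccl6 (−1.09), Ccl3 (−0.64) and Ccl4 (−0.14) turned negative; this scaling moved the median of all genes to −1.23. Of 190 recomputed fold changes of single members, 175 kept their direction and side of the threshold, 7 lost and 4 gained the threshold, and 4 turned. No paired analysis was possible because the arms share no mouse number. Depth limited the low receptors Ccr3, Ccr4 and Ccr8, which were not tested, and Ccl5 with IgG (171 counts).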
